A study of Mus musculus with 4 samples.

Results

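Mature neutrophils were taken from single-cell RNA-seq of CD45.2+ mouse bone marrow by their RNA content. A cell was counted as mature when the resistin-like gene Retnlg made up at least 0.3% of its unique molecular identifiers (UMIs, counted RNA molecules) and the secondary granule genes Camp and Ngp together made up less than 1%. It also had to hold fewer than 5 UMIs of the monocyte genes Ccr2, F13a1, Fn1 and Ms4a6c and no UMI of the B cell gene Cd79a. A barcode entered if it had 500 genes or more, 1000 UMIs or more and no more than 10% mitochondrial UMIs, which kept 31209 of 34670 barcodes. The rule found 2018 mature neutrophils: 514 of 7616 kept cells in B12+Butyrate, 644 of 8048 in B12, 273 of 6793 in Butyrate and 587 of 8752 in Control. These cells were chosen by measured RNA levels, so the levels of the genes in the rule are given as a description, with no test.

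The marrow came from lethally irradiated mice transplanted 50:50 with CD45.1+ marrow that was Tet2+/+ and CD45.2+ marrow that was Tet2+/-. Every library holds the CD45.2+ Tet2+/- cells only, so all groups share the loss of 1 copy of Tet2, the irradiated host and the wild-type competitor cells. After 1 month of engraftment the mice were treated for 7 months. The B12+Butyrate group received 0.29 µg vitamin B12 by intraperitoneal injection 2 times a week and 100 mM NaButyrate in the drinking water, the B12 group the same injections and 100 mM NaCl water, the Butyrate group PBS injections and NaButyrate water, and the Control group PBS injections and NaCl water. Each group is 1 library of viably frozen marrow pooled from 3 mice, sorted live for CD45.2, with Kit+ and Kit- cells mixed 50:50, which sets part of every share of cells below. With n = 1 library per group no difference has a replicate check and no test between groups was made. Age and sex of the animals were not used.

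Neutrophils are made in the marrow from granulocyte-monocyte progenitors. During maturation they fill their granules in a fixed order: primary granules with myeloperoxidase and elastase first, then secondary granules with lactoferrin and Camp, the cathelicidin peptide, and last tertiary granules with gelatinase. Mature cells stop making granule proteins, gain the chemokine receptor Cxcr2, which directs their release to the blood, and carry RNA for interleukin-1β and other mediators that let them respond quickly to microbes. Retnlg encodes a small secreted cysteine-rich protein that is abundant in mature neutrophils.

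The members held 2230202 UMIs in B12+Butyrate, 2686871 in B12, 1150293 in Butyrate and 2609810 in Control. Medians were 4215, 3895, 4046 and 4205 UMIs per cell and 1377, 1295, 1362 and 1382 genes per cell in the same order of libraries. Levels are CPM, a gene's UMIs over all members of a library scaled to the library's summed UMIs, and the ranges in brackets are exact 95% Poisson intervals. Intervals here cover counting error only, not the differences between mice or the uneven spread of an RNA over cells. No member barcode occurred in 2 libraries. Neutrophil RNA was also found in B cells, taken as cells with 2 or more Cd79a UMIs and Retnlg under the minimum of the rule. They carried S100a9 at 12821 to 16049 CPM, against 106013 to 118337 CPM in the members, and Camp at 5464 to 7150 CPM. Their Retnlg was 21.7 to 67.4 CPM, a level that this choice limits. Whether the neutrophil RNA was free or came from a neutrophil caught in the same barcode was not tested. Tet2 was at 69.9 CPM in B12+Butyrate, 80.4 in B12, 90.4 in Butyrate and 72.8 in Control, and which part of the gene was deleted was not used here, so these levels do not check the genotype.

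All 4 genes given as marks of these cells were high in the members' summed UMIs. Retnlg, which the rule used, was at 34944 CPM in B12+Butyrate, 33376 in B12, 32014 in Butyrate and 36063 in Control. Il1b, which encodes interleukin-1β, was at 756 CPM in B12+Butyrate, 1041 in B12, 916 in Butyrate and 660.2 in Control, with B12 highest and Control lowest. Cxcr2 was at 985 CPM in B12+Butyrate, 1112 in B12, 909 in Butyrate and 947 in Control, and Cstdc4, a stefin-family inhibitor of cysteine proteases, at 1265 CPM in B12+Butyrate, 1461 in B12, 1394 in Butyrate and 1277 in Control. A Cxcr2 UMI was held by 94.9 to 96.4% of members over the libraries, but a Cstdc4 UMI by only 30.4 to 33.5%. The level of Cstdc4 thus came from a part of the members, with up to 190 UMIs in 1 Control cell. The calprotectin genes S100a8 and S100a9 together with Retnlg made up 22.9% of the members' UMIs in B12+Butyrate, 22.9% in B12, 21.8% in Butyrate and 24.3% in Control. Of the markers of other marrow cells, natural killer cell genes summed to 0 to 11.7 CPM, with Gzma, Gzmb and Prf1 at 0, platelet genes to 0 to 1.53 CPM, T cell genes to 13.4 to 41.4 CPM, with Cd8a at 0, and B cell genes to 67.4 to 104 CPM. Higher sums were seen for conventional dendritic cell genes (395 to 439 CPM), for cycling genes (1528 to 1728 CPM) and for primary granule progenitor genes, at 348 CPM in B12+Butyrate, 173 in B12, 94.8 in Butyrate and 794 in Control. Only 2 of the 7 dendritic cell genes and 2 of the 7 cycling genes reached 20 CPM in the members. A UMI of Cst3 was held by 72.7 to 77.9% of members, and of the dendritic cell gene H2-Aa by 0.511 to 1.83%. Hmgb2 was seen in 96.7 to 99.0% of members, and the cycling gene Cdk1 in 0.311 to 1.36%. Of the 8 monocyte genes 2 reached 20 CPM in the members, Ly6c2, which neutrophils carry as well, at 475 CPM in B12+Butyrate, 432 in B12, 476 in Butyrate and 515 in Control, and Csf1r at 41.7 CPM in B12+Butyrate, 48.8 in B12, 31.3 in Butyrate and 45.2 in Control.

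The cells just inside and just outside the limits of the rule were counted. Retnlg lay between 0.3% and 0.5% of UMIs in 77 members, and 46 cells that met the other conditions lay between 0.2% and 0.3%. Camp plus Ngp lay between 0.5% and 1% in 193 members, and 257 Retnlg-high cells lay between 1% and 2%. The monocyte limit set aside 76 cells that met all other conditions, of which 6 had 5 to 9 monocyte UMIs, and 1926 of the 2018 members had none. The Cd79a condition set aside 56 cells.

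Mature cells were set beside the 1719 band-stage neutrophils, which had the same Retnlg minimum but at least 1% Camp plus Ngp, and the 11459 immature neutrophils with at least 1% Camp plus Ngp and less Retnlg. Since Camp and Ngp set these stages apart in the same cells, the differences describe the stages and test nothing. Mature cells were the shallowest, with 3895 to 4215 UMIs at the median, against 7410 to 8192 in band-stage and 16043 to 16967 in immature cells. In all 4 libraries, 701 of 5063 genes (13.8%) were higher by at least 1.5-fold in mature than in band-stage cells and 474 (9.36%) were lower.

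By the smallest ratio over the 4 libraries at 100 CPM or more, Il1b came first among the genes higher in mature cells, at 660.2 to 1041 CPM over the 4 libraries against 20.5 to 44.5 CPM in band-stage and 1.11 to 4.88 CPM in immature cells. The interferon-induced membrane protein gene Ifitm1 was at 826 to 1981 CPM in mature and 38.3 to 131 CPM in band-stage cells. Clec7a, which encodes the β-glucan receptor Dectin-1, was at 427 to 499 CPM against 15.7 to 27.0 CPM, and Ccl6, a chemokine, at 2317 to 2868 CPM against 155 to 221 CPM. The sialyltransferase gene St8sia4 (log2 ratio 3.53 to 3.76 over the libraries), the SIRP-family receptor genes Sirpb1b (3.39 to 3.57) and Sirpb1c (3.27 to 3.72), the platelet-activating factor hydrolase gene Pla2g7 (3.38 to 3.77) and Jaml (3.22 to 3.79), an adhesion molecule used in transmigration, followed. These and all later log2 ratios have 10 CPM added to both levels, which understates the ratios of low genes. Wfdc17, a small secreted protein of the whey acidic protein family, was at 471 to 1754 CPM in mature and 6.38 to 77.8 CPM in band-stage cells.

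**Figure D1:**
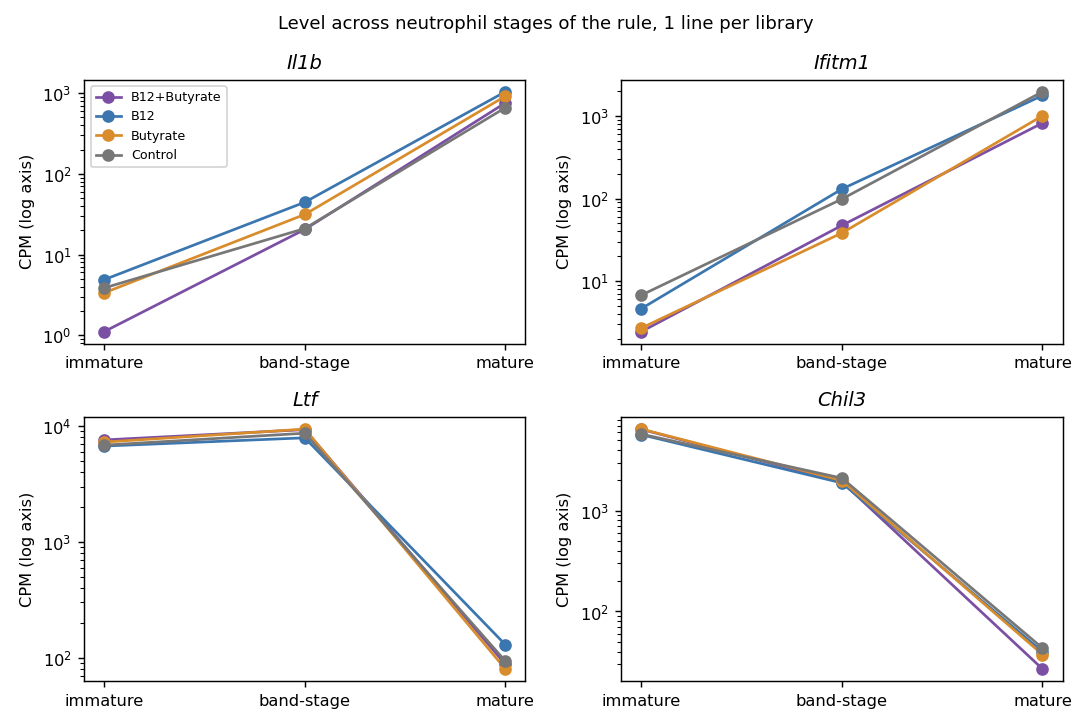
Level of 4 genes in immature, band-stage and mature neutrophils, in CPM on a log axis, with 1 line for each library. Il1b and Ifitm1 are higher at each stage than at the one before in every library, while Ltf and Chil3 are lowest in mature cells.

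The genes that were lower in mature cells included several of granule content. Ltf, the lactoferrin of secondary granules, was at 80.0 to 129.5 CPM in mature and 7894 to 9393 CPM in band-stage cells, and the chitinase-like Chil3 at 26.9 to 43.3 CPM against 1886 to 2105 CPM. Fcnb, a ficolin of early neutrophils, was at 1.35 to 15.3 against 151 to 249 CPM, and Serpinb1a, an inhibitor of the neutrophils' own serine proteases, at 40.9 to 85.4 against 471 to 585 CPM. Lta4h, which makes leukotriene B4, had log2 ratios of −3.09 to −2.81, the carboxypeptidase gene Cpa6 −3.52 to −2.81, the lamin-processing protease gene Zmpste24 −3.29 to −2.79, the formin gene Fmnl2 −3.64 to −2.70 and the lipid transporter gene Abca13 −2.96 to −2.67. F730016J06Rik had log2 ratios of −2.72 to −2.50.

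Read by function, secondary granule genes were lower in mature cells in all 4 libraries for 11 of the 12 listed, and none was higher. The NADPH oxidase, the enzyme of the respiratory burst, had 3 of 7 genes lower and none higher, where 9.36% of all genes were lower. By contrast 10 of the 16 measured growth factor and cytokine receptors, 14 of 25 interferon response genes, 8 of 18 innate sensing genes and 7 of 11 inflammatory cytokine genes were higher, set against 13.8% of all genes, while 1 sensing and 1 cytokine gene were lower. Tertiary granule genes were split, with 3 of 11 higher and 1 lower. The median log2 ratio of the cytokine list was 1.23 to 1.34 over the libraries, that of the interferon list 0.70 to 1.12 and that of the secondary granule list −1.90 to −1.61.

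Clustering of the members alone gave 5 clusters, named here by number. Cluster 0, with 867 cells, was led by Il1b, the mTORC2 regulator gene Prr5l, Wfdc17 and the stress-response factor Atf3, and cluster 1, with 673 cells, by Abca13, Ly6a2, Itgb2l, Ltf, Cd177 and Olfm4. Cluster 2 (282 cells) was led by Fabp5, Ifitm1, Smox and Cstdc4, cluster 3 (134 cells) by the interferon-induced genes Ifit3, Rsad2, Slfn5 and Isg15, and cluster 4 (62 cells) by the primary granule genes Mpo and Elane and by Ccl5. Within Control, Camp was at 822 CPM in cluster 1 and 186 CPM in cluster 0, while Il1b was at 109.5 and 1558 CPM. Cluster 1 was also the deepest, with 5088 UMIs at the median against 3553 in cluster 0. The clusters were made from these cells' own genes, so these levels describe them. Their sizes by library are given below for clusters 0 and 4 only and were not tested.

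The share of mature neutrophils was lowest in Butyrate and highest in B12. They made up 6.75% (6.20 to 7.34%) of kept cells in B12+Butyrate, 8.002% (7.42 to 8.62%) in B12, 4.02% (3.56 to 4.51%) in Butyrate and 6.71% (6.19 to 7.25%) in Control (exact 95% binomial intervals). The share was 0.599 times as large in Butyrate as in Control (95% interval 0.521 to 0.689) and 0.843 times as large in B12+Butyrate as in B12 (0.754 to 0.943). It was 1.19 times as large in B12 as in Control (1.07 to 1.33) and 1.68 times as large in B12+Butyrate as in Butyrate (1.46 to 1.94).

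Taken as a share of all neutrophils found by the rule, the order changed. Mature cells were then 12.2% (11.3 to 13.3%) in B12+Butyrate, 14.1% (13.1 to 15.2%) in B12, 9.93% (8.83 to 11.1%) in Butyrate and 15.9% (14.7 to 17.1%) in Control. The ratio of B12 to Control turned to 0.890 (0.803 to 0.986), while that of Butyrate to Control was 0.625 (0.546 to 0.715), that of B12+Butyrate to B12 0.866 (0.777 to 0.964) and that of B12+Butyrate to Butyrate 1.23 (1.07 to 1.42). Immature neutrophils, which this denominator includes, were 41.7% of kept cells in B12+Butyrate, 42.7% in B12, 32.9% in Butyrate and 29.8% in Control. Band-stage cells were 6.68% of kept cells in B12+Butyrate, 5.90% in B12, 3.55% in Butyrate and 5.64% in Control, and were thus lowest in Butyrate too. Barcodes above the mitochondrial limit made up 5.34% in B12+Butyrate, 9.43% in B12, 13.9% in Butyrate and 8.89% in Control. Their part in the shares was not tested.

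**Figure D2:**
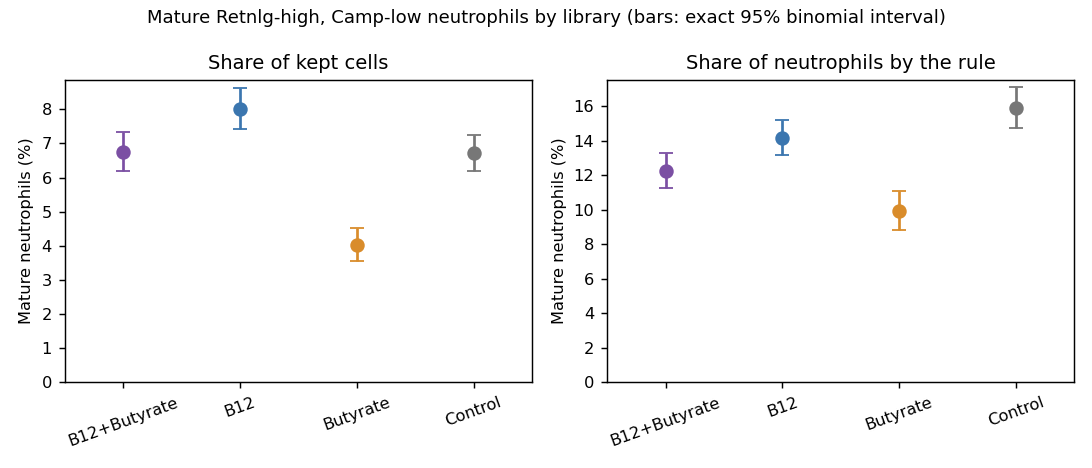
Share of mature neutrophils in each library, as percent of kept cells (left) and of all neutrophils by the rule (right), with exact 95% binomial intervals as bars. Butyrate is lowest in both panels, at 4.02% and 9.93%, while B12 is highest on the left and Control on the right.

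Butyrate in the drinking water was compared at both levels of B12, in 2 pairs of libraries that share none: Butyrate against Control and B12+Butyrate against B12. In them, 12 genes were lower by at least 1.5-fold in both, which is 9.02% of the 133 genes lower in the first comparison and 30.8% of the 39 lower in the second. Of all 4249 genes at 20 CPM or more in either library, 0.918% were lower by that much in the second comparison, the share to set beside the 9.02%. In the first comparison it was 3.08% of 4314 genes, to set beside the 30.8%. No gene was higher in both. Without 15 members that held over 10000 UMIs or at least 20 UMIs of primary granule genes, an alternative chosen after seeing the data, 7 of the 12 remained: Wfdc17, Ifitm1, Cstdc5, Lrg1, Tspo, Cmah and Steap4. The other 5 were Ptma, Rpl22, Rpl10a, Snrpd2 and Stmn1. Of these, Ptma was at 289 CPM in B12+Butyrate, 584 in B12, 250 in Butyrate and 528 in Control in band-stage cells. Without the 15 members Elane, Mpo, Prtn3 and Plac8 were also lower in both pairs and Itga8, Pid1 and Tiam1 higher in both. Elane, Mpo and Prtn3 were among the primary granule genes used to choose the 15 members, so their ratios without those members only describe the rest. The Cstdc5 ratios rest on few cells. A Cstdc5 UMI was held by 16 members in B12+Butyrate, 28 in B12, 7 in Butyrate and 20 in Control. In the same order 2 cells held 35.3%, 22.3%, 70.7% and 36.0% of its UMIs.

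Wfdc17 (ENSMUSG00000069792) had the lowest ratio of them in B12+Butyrate against B12. It was at 471 (443 to 500.2) CPM in B12+Butyrate, 1754 (1705 to 1805) in B12, 687 (639.7 to 736) in Butyrate and 1621 (1573 to 1671) in Control. The level in each butyrate library was under that of both libraries without butyrate, with log2 ratios of −1.23 in Butyrate against Control and −1.88 in B12+Butyrate against B12. Fewer cells carried it as well. With every cell thinned to 1000 UMIs, the share of mature cells with a Wfdc17 UMI was 22.4% (18.8 to 26.2%) in B12+Butyrate, 50.6% (46.7 to 54.5%) in B12, 24.2% (19.2 to 29.7%) in Butyrate and 45.5% (41.4 to 49.6%) in Control, against 2.83 to 4.06% of B cells, whose median depth was 4742 to 5539 UMIs before thinning. Without thinning the share of mature cells was 36.8% in B12+Butyrate, 69.3% in B12, 38.8% in Butyrate and 62.2% in Control. Band-stage cells with a Wfdc17 UMI made up 0.786% in B12+Butyrate, 3.58% in B12, 1.24% in Butyrate and 4.05% in Control, which lies within or below the range of the B cells and is not read as expression.

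Ifitm1 (ENSMUSG00000025491) was lower in the same libraries. Its level was 826 (789 to 865) CPM in B12+Butyrate, 1783 (1733 to 1835) in B12, 1011 (954 to 1071) in Butyrate and 1981 (1928 to 2036) in Control, with log2 ratios of −0.96 and −1.10. At 1000 UMIs per cell the share of mature cells with an Ifitm1 UMI was 37.4% (33.2 to 41.7%) in B12+Butyrate, 57.0% (53.1 to 60.8%) in B12, 42.5% (36.6 to 48.6%) in Butyrate and 55.5% (51.4 to 59.6%) in Control, against 0.0988 to 0.658% of B cells, and without thinning it was 57.4% in B12+Butyrate, 73.8% in B12, 60.1% in Butyrate and 71.9% in Control. In band-stage cells it was at 47.3 CPM in B12+Butyrate, 131 in B12, 38.3 in Butyrate and 98.8 in Control, so the butyrate libraries were the 2 lowest there too. Its relative Ifitm2, looked up after the values were seen, was at 1180.2 CPM in B12+Butyrate, 1768 in B12, 1206 in Butyrate and 1548 in Control, and Ifitm3 at 611 CPM in B12+Butyrate, 758 in B12, 598 in Butyrate and 844 in Control, both lower in the butyrate library of each pair by less than 1.5-fold.

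Wfdc17 was lower in the butyrate library of each pair inside clusters 0 to 3; cluster 4 held 3 to 6 cells in 3 of the libraries and was not read. In cluster 0 Wfdc17 was at 925 CPM in B12+Butyrate, 3044 in B12, 1285 in Butyrate and 3555 in Control, and in cluster 1 at 61.1, 352, 56.3 and 270.2 CPM in the same order. In cluster 2 it was at 521, 2133, 909 and 2140.2 CPM, and in cluster 3 at 361, 1277, 899 and 1767 CPM. Ifitm1 in cluster 0 was at 1261 CPM in B12+Butyrate, 2585 in B12, 1505 in Butyrate and 3554 in Control. Cells with Wfdc17 often held Ifitm1: in Control 78.7% of Wfdc17-positive and 36.2% of Wfdc17-negative cells did at 1000 UMIs, and in B12+Butyrate 55.7% and 32.1%.

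**Figure D3:**
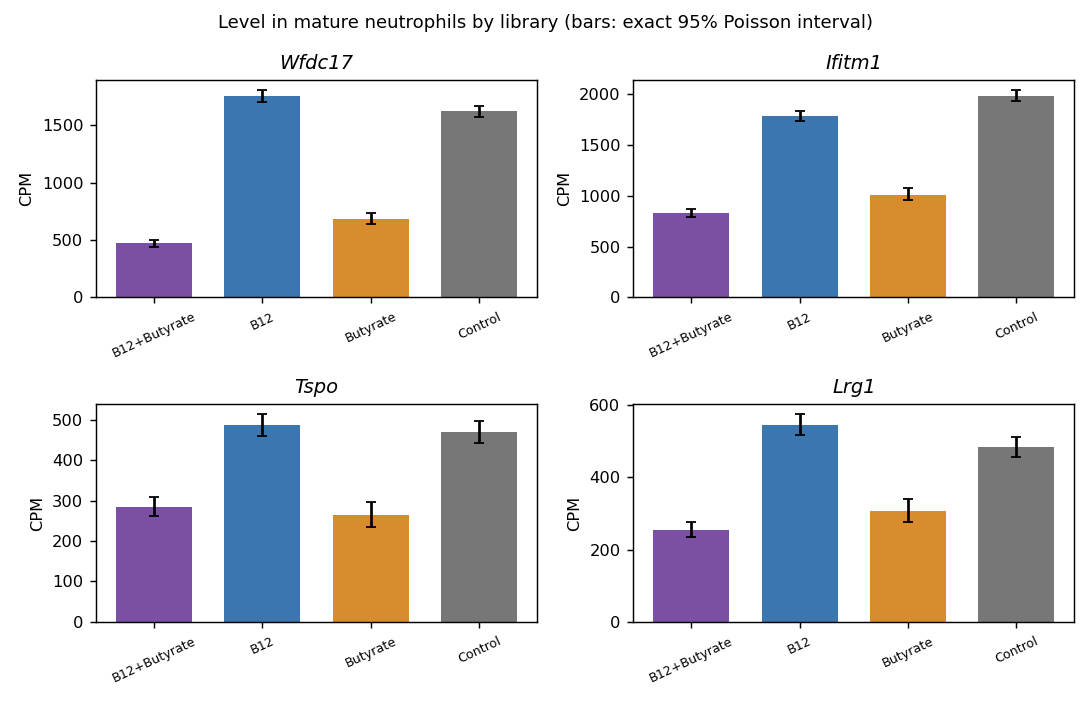
Levels of Wfdc17, Ifitm1, Tspo and Lrg1 in the mature neutrophils of each library, in CPM, with exact 95% Poisson intervals as error bars. In each panel both libraries with butyrate lie below both libraries without it; for Wfdc17 these are 471 and 687 CPM against 1754 and 1621 CPM.

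The sequences just before the start of 3 of these genes are shown because the genes moved together. They are the 250 bases before the RefSeq gene start on build GRCm38.p6, which is not the build of the counts (GRCm39), written 5′ to 3′ on the strand of the gene. Wfdc17 lies on the plus strand at chr11:83703806-83704055, Ifitm1 on the plus strand at chr7:140967826-140968075 and Lrg1 on the minus strand at chr17:56121947-56122196. Capitals mark matches on either strand to TTNNGNAA (CCAAT/enhancer-binding proteins), GAGGAAGT (PU.1), TTCNNNGAA (STAT), the interferon-stimulated response element, the NF-kB motif or the TATA box.
Wfdc17: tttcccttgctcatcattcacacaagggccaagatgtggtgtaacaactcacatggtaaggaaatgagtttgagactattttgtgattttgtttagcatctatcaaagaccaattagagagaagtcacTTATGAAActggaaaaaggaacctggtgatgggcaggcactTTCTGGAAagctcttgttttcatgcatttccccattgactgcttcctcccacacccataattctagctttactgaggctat
Ifitm1: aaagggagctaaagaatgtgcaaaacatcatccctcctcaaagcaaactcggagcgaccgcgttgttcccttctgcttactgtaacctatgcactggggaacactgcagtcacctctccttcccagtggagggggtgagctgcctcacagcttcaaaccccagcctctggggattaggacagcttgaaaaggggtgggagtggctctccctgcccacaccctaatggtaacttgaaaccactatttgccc
Lrg1: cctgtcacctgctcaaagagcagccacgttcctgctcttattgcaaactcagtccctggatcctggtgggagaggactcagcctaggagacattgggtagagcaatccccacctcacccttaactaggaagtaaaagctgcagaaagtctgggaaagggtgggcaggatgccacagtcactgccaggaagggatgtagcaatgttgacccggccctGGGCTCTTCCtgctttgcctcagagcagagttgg
The Wfdc17 window holds TTNNGNAA at 122 and 81 bases before the start, letters found in 36.8% of all 32851 windows of this length, and the Lrg1 window holds the NF-kB motif at 34 bases before the start, found in 45.8%. The Ifitm1 window holds none of the 6 motifs. The other shares were 2.44% for GAGGAAGT, 7.02% for TTCNNNGAA, 2.98% for the interferon-stimulated response element and 12.4% for the TATA box.

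The remaining genes that were lower in both pairs differ in role. Tspo, a protein of the outer mitochondrial membrane, was at 285 CPM in B12+Butyrate, 487 in B12, 265 in Butyrate and 470.1 in Control, with log2 ratios of −0.80 and −0.75. Lrg1, a secreted leucine-rich glycoprotein that neutrophils store in granules, was at 254 CPM in B12+Butyrate, 546 in B12, 307 in Butyrate and 483 in Control (−0.64 and −1.07). In band-stage cells Tspo was at 335 CPM in B12+Butyrate, 487 in B12, 331 in Butyrate and 467 in Control. Lrg1 was there at 404, 518, 435 and 485 CPM in the same order. In mature cells both butyrate libraries were thus below both others for these genes, and for the next ones as well. Cmah, the enzyme that makes N-glycolylneuraminic acid, was at 80.7 CPM in B12+Butyrate, 129.9 in B12, 102 in Butyrate and 181 in Control, and the metalloreductase gene Steap4 at 6.28 CPM in B12+Butyrate, 26.1 in B12, 5.22 in Butyrate and 32.6 in Control. The antiprotease genes Slpi and Wfdc21, outside this set, did not follow Wfdc17 by that much. Slpi was at 2084 CPM in B12+Butyrate, 2300.1 in B12, 1907 in Butyrate and 1947 in Control. Wfdc21 was at 2238 CPM in B12+Butyrate, 2725 in B12, 2296 in Butyrate and 2835 in Control. Serpinb1a, also listed as an antiprotease, was at 52.5 CPM in B12+Butyrate, 77.0 in B12, 40.9 in Butyrate and 85.4 in Control. Its log2 ratios were −0.91 in Butyrate against Control and −0.48 in B12+Butyrate against B12. Those of Stfa2l1, on the same list, were 0.53 and 0.04.

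**Figure D4:**
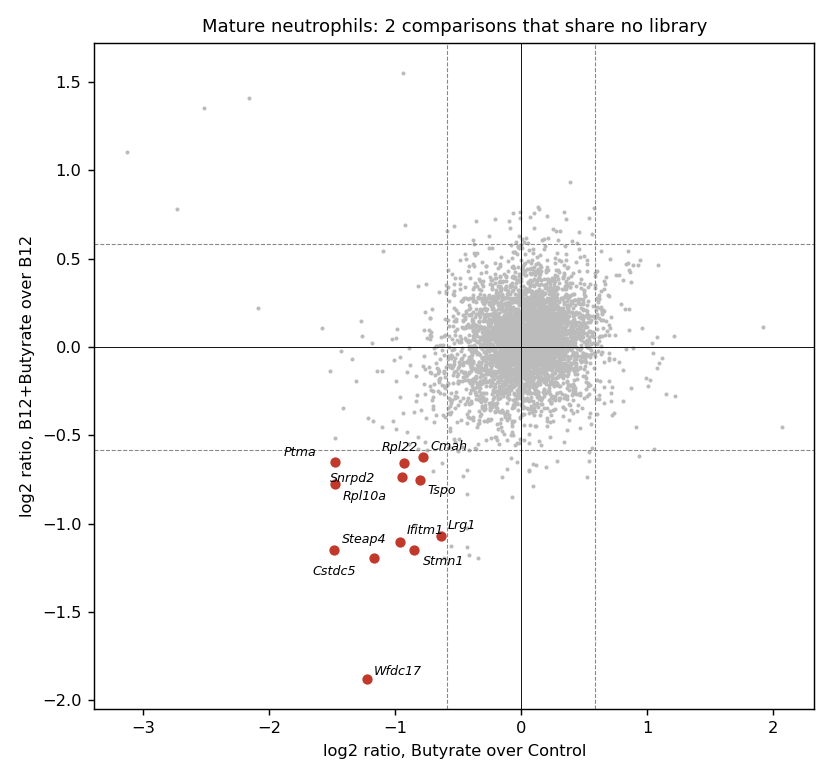
Log2 ratios in mature neutrophils for Butyrate over Control (horizontal) and B12+Butyrate over B12 (vertical), 1 point for each of 4478 genes at 20 CPM or more in any library; dashed lines mark 1.5-fold. The 12 genes past 1.5-fold lower in both are red and named, with Wfdc17, at −1.23 and −1.88, lowest on the vertical axis, and no gene lies past 1.5-fold higher in both.

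Butyrate against Control, the pair without B12, had the most genes past 1.5-fold: 115 of 4314 (2.67%) were higher and 133 (3.08%) lower in Butyrate, whose library had the fewest members. The Poisson intervals of the 2 libraries were apart for 94 of the 115 and 104 of the 133. In both comparisons without the Butyrate library they were apart for every gene past 1.5-fold. Without the 15 members named above, 120 were higher and 49 lower. The higher genes included mediators and early response genes. Cxcl2, a chemokine that recruits neutrophils through Cxcr2, was at 1003 (946 to 1063) CPM in Butyrate, against 520.3 (493 to 549) in Control (log2 ratio 0.93), and Nfkbia, the inhibitor of NF-kB that NF-kB itself induces, at 332 (299.6 to 367) CPM in Butyrate, against 162 (147 to 178) in Control (0.99). Thbs1, the matrix protein thrombospondin 1, was at 148 (126 to 172) CPM in Butyrate, against 27.6 (21.6 to 34.7) in Control (2.07), and Hcar2, a receptor for butyrate and niacin, at 113 (94.4 to 134) CPM in Butyrate, against 50.6 (42.3 to 60.0) in Control (1.02). B12+Butyrate did not share these levels, with Cxcl2 at 391, Nfkbia at 165, Thbs1 at 64.1 and Hcar2 at 65.5 CPM. Thbs1 was still above Control there, and in B12 at 91.6 CPM. Band-stage cells held Thbs1 at 237 CPM in B12+Butyrate, 203 in B12, 335 in Butyrate and 77.3 in Control. Cxcl2 was there at 62.9, 60.3, 177 and 94.2 CPM in the same order, and Nfkbia at 109, 101, 147 and 102 CPM.

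**Figure D5:**
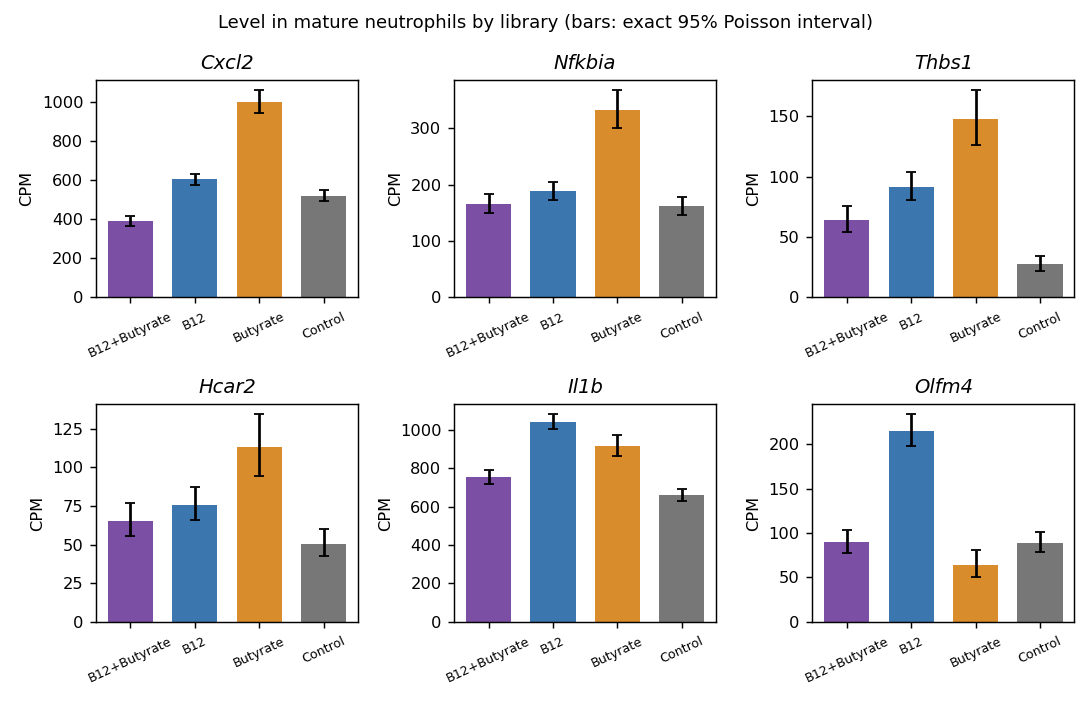
Levels of Cxcl2, Nfkbia, Thbs1, Hcar2, Il1b and Olfm4 in the mature neutrophils of each library, in CPM, with exact 95% Poisson intervals as error bars. Butyrate is highest for the first 4 genes (Cxcl2 1003 CPM against 391 to 605 CPM elsewhere), and B12 is highest for Il1b and Olfm4.

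Other genes at 100 CPM or more that were highest in Butyrate over Control were Ifi27l2a, an interferon-induced gene, at 543 CPM in Butyrate, against 239 in Control (log2 ratio 1.15), the mitochondrial DNA polymerase subunit Polg2 (1.08), the transglutaminase gene Tgm3 (0.95) and the unnamed genes Gm26802 (1.22) and Gm57200 (1.01). Ptgs2, which makes prostaglandins, was at 192 CPM in Butyrate, against 96.2 in Control, and Tnfaip3, a brake on NF-kB, at 61.7 CPM in Butyrate, against 33.7 in Control. Of the cytokine list, 10 of 11 members measured had log2 ratios above 0, with a median of 0.47, and of the NF-kB and feedback list 10 of 11, with a median of 0.41. Over all genes 57% were above 0, with a median of 0.04. Il1b (0.47) and Osm (0.49), a cytokine of activated neutrophils, stayed under 1.5-fold.

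Genes that respond to sample handling were higher along with these lists. Of 15 immediate early and heat shock genes measured, 14 had a log2 ratio above 0 in Butyrate against Control, with a median of 0.43; Atf3 was at 85.2 CPM in Butyrate, against 34.5 in Control, Fos at 3497 CPM in Butyrate, against 2364 in Control and Dusp1 at 2252 CPM in Butyrate, against 1537 in Control. Cmss1, Cdk8 and Lars2, which were also higher in Butyrate than in Control in band-stage and immature cells, were at log2 ratios of 0.86, 0.84 and 0.78. Their part in the inflammatory genes was not tested.

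The genes lowest in Butyrate against Control at 100 CPM or more were the primary granule genes Elane, Prtn3, Mpo and Ctsg, and Ptma, a chromatin-associated protein of dividing cells, at 85.2 CPM in Butyrate, against 256 in Control, the ribosomal protein genes Rps20 at 69.5 CPM in Butyrate, against 212 in Control and Rpl12 at 46.1 CPM in Butyrate, against 129 in Control, and Plac8 at 59.1 CPM in Butyrate, against 165 in Control. These rested in part on the 15 members with very many UMIs or primary granule UMIs: without them the log2 ratio of Ptma was −0.95 against −1.48 with them, that of Rps20 −0.77 against −1.48 and that of Rpl12 −0.43 against −1.31. Cluster 4, led by Mpo and Elane and with Rpl12 and Ccl5 among its leading genes, held 6 of 273 members in Butyrate and 47 of 587 in Control, and its part in these ratios was not tested. In cluster 0 Ptma was at 121 CPM in Butyrate, against 192 in Control.

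B12+Butyrate against B12 asked for the difference with butyrate under B12 injections. Of 4249 genes, 38 (0.894%) were higher and 39 (0.918%) lower in B12+Butyrate. Besides Wfdc17 and Ifitm1 the lowest genes at 100 CPM or more were Lrg1, Tspo, the stefin gene Cstdc5 at 53.4 CPM in B12+Butyrate, against 135 in B12, Olfm4, an olfactomedin of a subset of neutrophils, at 89.7 (77.7 to 103) CPM in B12+Butyrate, against 215 (198 to 234) in B12 (log2 ratio −1.18), the histone variant gene Macroh2a1 at 80.3 CPM in B12+Butyrate, against 153 in B12, and the interleukin-13 receptor gene Il13ra1 at 80.7 CPM in B12+Butyrate, against 141 in B12. The ratio of Macroh2a1 was −0.85, and −0.51, under 1.5-fold, without the 15 members named above. In B12, 2 cells held 33.4% of its UMIs. Of the Cstdc5 UMIs 2 cells held 22.3% in B12 and 35.3% in B12+Butyrate. Apart from Mpo, the highest ratios at 100 CPM or more were those of the transcription factor gene Nfia at 144 CPM in B12+Butyrate, against 78.9 in B12 (0.79), Map3k15 (0.62, and 0.56 without the 15 members), coagulation factor V, F5 (0.61), the ERK phosphatase gene Dusp6 (0.57), Rgcc (0.54), the receptor kinase gene Grk5 (0.53) and Myo5a (0.52); the last 4 were under 1.5-fold. Of the cytokine list 6 of 10 members measured were above 0, near the 57.3% of all genes, with a median of 0.01, and 2 were past 1.5-fold lower, Cxcl2 at 391 CPM in B12+Butyrate, against 605 in B12 and the chemokine gene Ccl3 at 11.7 CPM in B12+Butyrate, against 26.1 in B12. Secondary granule genes had a median of −0.28 with 8 of 11 below 0, against 0.04 over all genes, led by Olfm4 and Ltf (−0.51).

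Of the 36 listed interferon response genes, 10 of 19 measured were above 0 in Butyrate against Control, near the 57% of all genes, with Ifi27l2a (1.15) and Rsad2 (0.66) highest and Ifitm1 lowest. In B12+Butyrate against B12 13 of 25 were above 0, near the 57.3% of all genes, with Ifit3 at 21.97 CPM in B12+Butyrate, against 9.30 in B12, and Oasl1 at 34.1 CPM in B12+Butyrate, against 19.0 in B12 highest and Ifitm1 and Slfn4 (−0.40) lowest. Ifitm1 was thus lower in both comparisons while the list's medians were 0.09 and 0.02.

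B12 against Control, the pair on NaCl water, had few genes past 1.5-fold: 32 of 4271 (0.749%) were higher and 39 (0.913%) lower in B12. Among genes at 100 CPM or more Olfm4 had the highest ratio, at 215 (198 to 234) CPM in B12, against 89.3 (78.2 to 102) in Control (log2 ratio 1.18). At 1000 UMIs per cell the share of mature cells with an Olfm4 UMI was 5.06% (3.33 to 7.32%) in B12+Butyrate, 8.23% (6.23 to 10.6%) in B12, 2.56% (1.04 to 5.21%) in Butyrate and 3.58% (2.23 to 5.42%) in Control, against 0.189 to 1.04% of B cells, and without thinning it was 6.61% in B12+Butyrate, 12.9% in B12, 3.30% in Butyrate and 5.62% in Control. The same library was highest in the earlier stages, with 269 CPM in B12+Butyrate, 595 in B12, 260.01 in Butyrate and 188 in Control in band-stage and 157 CPM in B12+Butyrate, 406 in B12, 131 in Butyrate and 121 in Control in immature cells. Il1b was at 1041 (1003 to 1081) CPM in B12, against 660.2 (629 to 692) in Control (0.65), and at 1000 UMIs per cell was seen in 43.3% of cells in B12 and 35.4% in Control, against 0.0943 to 0.768% of B cells. Within cluster 0, which the Il1b level helped to define and which held 299 of 644 members in B12 and 208 of 587 in Control, Il1b was at 2017 CPM in B12, against 1558 in Control, and within cluster 1 at 179.8 CPM in B12, against 109.5 in Control.

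The other genes with the highest ratios of B12 over Control at 100 CPM or more were the splicing factor gene Srsf7 at 272 CPM in B12, against 156 in Control (log2 ratio 0.77), the unnamed gene Gm56980 (0.69), the stefin gene Stfa2l1 at 1039.5 CPM in B12, against 666 in Control (0.64), Macroh2a1 (0.63, but 0.20 without the 15 members), the interferon-induced gene Oasl2 (0.61) and the stress-response gene Gadd45b (0.59). Of the cytokine list 9 of 10 measured members were above 0, with a median of 0.23, while 49.6% of all genes were above 0 with a median of −0.00. Ptgs2 was the exception at 82.6 CPM in B12, against 96.2 in Control. The immediate early and heat shock list was above 0 for 14 of 15 members with a median of 0.29, and its part in the cytokine genes was not tested. Its highest were Hspa1b at 40.2 CPM in B12, against 21.5 in Control, and Atf3 at 60.3 CPM in B12, against 34.5 in Control. Of the Hspa1b UMIs in B12, 2 cells held 48.1%. At 100 CPM or more and after the primary granule genes and Plac8, the lowest were the myosin gene Myo5a at 77.4 CPM in B12, against 123 in Control, F5 at 109 CPM in B12, against 159 in Control and the ribosomal protein gene Rpsa at 146 CPM in B12, against 210.4 in Control, the last 2 under 1.5-fold.

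B12+Butyrate against Butyrate gave the difference with B12 on butyrate water. Of 4265 genes, 51 (1.2%) were higher and 67 (1.57%) lower in B12+Butyrate. The Poisson intervals were apart for 31 of the 51 and 52 of the 67. Many genes that were high in Butyrate were among the lower ones: Cxcl2 at 391 CPM in B12+Butyrate, against 1003 in Butyrate (log2 ratio −1.34), Thbs1 (−1.09), Nfkbia (−0.96), Ifi27l2a (−1.08), Polg2 (−1.35), Gm57200 (−0.95) and Id2, an inhibitor of helix-loop-helix factors, at 55.6 CPM in B12+Butyrate, against 109 in Butyrate. This comparison and Butyrate against Control share the Butyrate library. Stfa1 was at 97.7 CPM in B12+Butyrate, against 263 in Butyrate. Apart from Mpo, the higher genes included Aldh3b1, an aldehyde dehydrogenase, at 112 CPM in B12+Butyrate, against 61.7 in Butyrate, the signal peptidase gene Sec11c at 148 CPM in B12+Butyrate, against 93.0 in Butyrate and Rgs18, a regulator of G-protein signalling, at 195 CPM in B12+Butyrate, against 134 in Butyrate, the last under 1.5-fold. Ptma, Rps20 and Rps18 were past 1.5-fold higher too with all members (0.81 for Ptma and 0.72 for Rps20), but without the 15 members named above the ratios of Ptma and Rps20 were −0.19 and −0.42.

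B12 was also compared in 2 pairs that share no library. No gene was past 1.5-fold higher in both B12 against Control and B12+Butyrate against Butyrate, and 3 genes were lower in both, Ikzf2, Map3k7 and Stx18, each at or below 34.8 CPM in every library. That is 7.69% of the 39 lower genes of the first comparison, to set beside the 1.57% of all genes lower in the second. It is 4.48% of the 67 lower genes of the second, to set beside the 0.913% of all genes lower in the first. Without the 15 members 8 genes were lower in both, Map3k7 and Stx18 among them, and Slfn5 was higher in both. Il1b had log2 ratios of 0.65 and −0.27, and Olfm4 of 1.18 and 0.42.

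The stefins, small inhibitors of cysteine proteases to which Cstdc4 belongs, include near copies of each other, so reads can be split between genes. Between the longest coding transcripts of GENCODE vM21, Stfa1 and Cstdc5 were identical at 97.1% of 617 aligned bases, Cstdc5 and Cstdc6 at 95.3%, and Stfa2 and Stfa2l1 at 95.7% of 373, while Cstdc4 was at most 82.4% identical to any other. The levels of these genes are uncertain by that. Stfa1 was at 97.7 CPM in B12+Butyrate, 116 in B12, 263 in Butyrate and 139 in Control and Cstdc5 at 53.4 CPM in B12+Butyrate, 135 in B12, 35.6 in Butyrate and 92.7 in Control, which went opposite ways in Butyrate against Control. Summed, Stfa1, Cstdc5 and Cstdc6 were at 155 CPM in B12+Butyrate, 253 in B12, 301 in Butyrate and 234 in Control, and Stfa2 with Stfa2l1 at 1113, 1124, 1008 and 708 CPM in the same order. Over the 7 stefins measured, 4 were higher in mature than in band-stage cells in all 4 libraries, against 13.8% of all genes, and none was lower, against 9.36%.

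Primary granule RNA is made in promyelocytes, early precursors of the neutrophil. Mpo, myeloperoxidase, was at 132 CPM in B12+Butyrate, 45.8 in B12, 34.8 in Butyrate and 246 in Control, and Elane, neutrophil elastase, at 73.1 CPM in B12+Butyrate, 28.7 in B12, 15.6 in Butyrate and 215 in Control. A few barcodes carried much of it in 3 of the libraries: members with 20 or more UMIs of Mpo, Elane, Prtn3 and Ctsg numbered 1 in B12+Butyrate, 2 in B12, 0 in Butyrate and 2 in Control and held 91.4%, 43.1%, 0% and 60.4% of these UMIs. The other members were at 29.1, 91.3, 86.9 and 304 CPM for the 4 genes together. In B cells Elane was at 309 CPM in B12+Butyrate, 523 in B12, 238 in Butyrate and 991 in Control, so Control was highest there as well. Band-stage cells differed, with Elane at 101 CPM in B12+Butyrate, 285 in B12, 133 in Butyrate and 115 in Control. Mpo was there at 29.6, 92.6, 57.9 and 71.6 CPM in the same order, so B12 was highest for both genes. Without the 15 members, chosen in part by their Mpo UMIs, Mpo was at 9.19 CPM in B12+Butyrate, 25.6 in B12, 34.8 in Butyrate and 95.5 in Control.

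Of the 9 chemoattractant receptors measured, Hcar2 was the one past 1.5-fold, higher in Butyrate than in Control and lower in B12+Butyrate than in Butyrate. Over all genes 0.749% to 3.08% were past it in a direction, so few calls in so short a list say nothing particular about it. Cxcr4, the receptor that holds neutrophils in the marrow, was at 308 CPM in B12+Butyrate, 254 in B12, 343 in Butyrate and 245 in Control, and the complement receptor gene C5ar1 at 803 CPM in B12+Butyrate, 801 in B12, 698 in Butyrate and 716 in Control. Mmp8 at 2189 CPM in B12+Butyrate, 1853 in B12, 2004 in Butyrate and 2009 in Control and Mmp9 at 2732 CPM in B12+Butyrate, 2444 in B12, 2836 in Butyrate and 2797 in Control, the collagenase and gelatinase of late granules, differed by less than 1.5-fold.

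Few genes that sense or handle the treatments were measured well. Of 13 butyrate receptors, carriers and histone deacetylases, 5 reached 20 CPM. Ffar2, another receptor for short-chain fatty acids, was at 2.24 CPM in B12+Butyrate, 3.35 in B12, 1.74 in Butyrate and 5.36 in Control, and the carrier gene Slc16a3 at 232 CPM in B12+Butyrate, 252 in B12, 199.9 in Butyrate and 215 in Control. The class IIa histone deacetylase gene Hdac4 was at 229.6 CPM in B12+Butyrate, 188 in B12, 274 in Butyrate and 244 in Control, and Hdac1 at 31.4 CPM in B12+Butyrate, 26.1 in B12, 24.3 in Butyrate and 22.6 in Control. Of 17 genes of cobalamin handling and DNA methylation, 6 reached 20 CPM in B12 against Control, with Tet3 at 29.1 CPM in B12+Butyrate, 36.8 in B12, 30.4 in Butyrate and 31.0 in Control.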

How the data were processed

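The deposited files hold whole UMI counts per gene and barcode from 3' single-cell libraries. Their headers name Cell Ranger 7.1.0, and the submitters' processing notes name the build GRCm39. The members, gene lists and tests were chosen with earlier results of these data known. From these counts the members' UMIs were summed per library and scaled to CPM. Log2 ratios have 10 CPM added and cover genes at 20 CPM or more in either library; genes 1.5-fold apart were counted. Each group is 1 library of 3 pooled mice, so no p-value was computed. Shares of cells with a UMI used cells thinned to 1000 UMIs. No doublets were removed beyond the rule; a removal by simulated-doublet score was an alternative. The genes named were the 8 highest and 8 lowest ratios of each comparison at 100 CPM or more, those past 1.5-fold in both pairs, the 10 highest and 10 lowest stage genes, markers, and members of the lists; list members beyond the 2 highest and 2 lowest were picked with their values seen. Members were clustered with leidenalg 0.10.2. Python 3.11.15, numpy 2.4.6, scipy 1.17.1 and pandas 2.3.3 were used, and the ratio calculation was tested on simulated data. Promoter sequences are from RefSeq.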

Additional observations from a re-analysis of the deposited data

Results flagged for a closer look

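Some genes were higher in one pair of libraries and lower in the other pair of the same treatment, each past 1.5-fold. Each difference is between 2 log2 ratios, 1 library to a group, and was not tested. For Cxcl2 the ratio with butyrate was 0.93 in Butyrate against Control and −0.62 in B12+Butyrate against B12, a difference of 1.55. Thbs1 had 1.43 in B12 against Control and −1.09 in B12+Butyrate against Butyrate, a difference of 2.52, and the unnamed gene Gm26802 0.64 and −0.85, a difference of 1.497. Thbs1 was at 64.1 CPM in B12+Butyrate, 91.6 in B12, 148 in Butyrate and 27.6 in Control, lowest in Control.

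The other genes of this kind are those of the primary granule and Plac8. The difference between the 2 pairs was −3.51 for Prtn3, −4.24 for Elane and −3.87 for Mpo, the same for butyrate as for B12 because all 4 libraries enter both. For B12 it was −2.31 for Ctsg and −1.27 for Plac8. Of the Mpo, Elane, Prtn3 and Ctsg UMIs, 1 member held 91.4% in B12+Butyrate and 2 members held 60.4% in Control. Without the 15 members over 10000 UMIs or with 20 or more of these UMIs, the opposite directions were gone: B12+Butyrate against Butyrate was −0.64 for Plac8, −0.68 for Elane, −0.61 for Prtn3, −0.86 for Ctsg and −1.22 for Mpo, and B12 against Control −0.75, −1.27, −1.48, −1.15 and −1.57 in the same order. B12+Butyrate against B12 was then −1.01 for Elane, −0.98 for Prtn3 and −0.89 for Mpo. The UMIs of Mpo, Elane, Prtn3 and Ctsg were part of the choice of these members, so the ratios of these genes only describe the rest.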

How the results depend on the processing

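Of 48 recomputed ratios of shares, 46 moved by less than their interval. With all neutrophils as denominator the log2 ratio of B12 to Control turned to −0.17 and that of B12+Butyrate to Butyrate was 0.30. Wfdc17, Ifitm1 and Tspo stayed past 1.5-fold lower in both butyrate pairs in each of 18 settings. Among these settings, those with no minimum level and with a minimum of 100 CPM cannot alter the ratio of a single gene. Counts past 1.5-fold, both directions together, were 71 in B12 against Control, 248 in Butyrate against Control, 77 in B12+Butyrate against B12 and 118 in B12+Butyrate against Butyrate. In the same order they were 189, 445, 197 and 301 with 1 CPM added, 11, 60, 11 and 17 with 50 CPM added, 146, 476, 164 and 272 with no minimum level, and 15, 79, 18 and 22 with a minimum of 100 CPM. With Camp plus Ngp up to 2% the first was 47, and with the rule on cells thinned to 1000 UMIs the last was 273. For single genes 1125 recomputed log2 ratios moved little, 152 moved more and 37 changed sign. The 1125 include the ratios from the settings that changed only the minimum level, which were fixed in advance. For list medians the numbers were 1530, 112 and 10. A sign change was counted only where the reported ratio was past 1.5-fold, so turns of smaller ratios are not among them. Rpl32 in B12+Butyrate against Butyrate was such a gene, at 0.52 as reported and −0.77 at its lowest. The sign changes counted in this way follow, as log2 ratios, and their cause was not tested. With a limit of Retnlg 0.1%, the sign turned in Butyrate against Control Elane 0.47 and in B12+Butyrate against Butyrate the primary granule median −1.77, Mpo −1.18, Ptma −0.58, Rps18 −0.44, Rps20 −0.14. With a limit of Retnlg 1%, the sign turned in B12+Butyrate against B12 the primary granule median −0.83, Mpo −0.83 and in B12+Butyrate against Butyrate the primary granule median −0.95, Mpo −1.18, Ptma −0.20, Rps18 −0.55, Rps20 −0.40. With a limit of Camp plus Ngp 2%, the sign turned in B12 against Control Elane 0.00338 and in B12+Butyrate against B12 the primary granule median −0.66, Mpo −0.0314. With under 2 monocyte UMIs, the sign turned in B12+Butyrate against B12 the primary granule median −0.99, Mpo −0.88 and in B12+Butyrate against Butyrate the primary granule median −1.23, Mpo −1.23, Ptma −0.21, Rps18 −0.34, Rps20 −0.28. With doublets removed, the sign turned in B12+Butyrate against B12 Ptma 0.0346. With the rule on 1000 UMIs, the sign turned in Butyrate against Control Ctsg 0.11, Plac8 0.0518, Ptma 0.17, Rpl12 0.71, Rpl22 0.33, Rps20 0.25 and in B12+Butyrate against Butyrate Ptma −0.70, Rps18 −0.73, Rps20 −0.75. Without the 15 members, the sign turned in B12+Butyrate against B12 the primary granule median −0.98, Mpo −0.89 and in B12+Butyrate against Butyrate the primary granule median −1.22, Mpo −1.22, Ptma −0.19, Rps18 −0.52, Rps20 −0.42. Primary granule UMIs were part of the choice of these members. With cells weighted equally, the sign turned in B12+Butyrate against B12 the primary granule median −0.64, Mpo −0.48 and in B12+Butyrate against Butyrate the primary granule median −0.49, Mpo −0.49, Ptma −0.0253, Rps18 −0.31, Rps20 −0.30. Leaving out a library would leave a group empty, so no such value exists. No paired analysis was possible because each group is 1 library. Depth limits Butyrate most, with 273 members.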

Other observations

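Some mature cells held several UMIs of interferon-induced genes, counted together, so that 1 gene alone could supply them. After thinning to 1000 UMIs, cells with 3 or more UMIs of 12 interferon-induced genes made up 3.70% (2.24 to 5.71%) of mature neutrophils in B12+Butyrate, 3.73% (2.40 to 5.49%) in B12, 2.56% (1.04 to 5.21%) in Butyrate and 3.58% (2.23 to 5.42%) in Control (exact 95% binomial intervals). Among band-stage cells they were 0.786% in B12+Butyrate, 0.632% in B12, 0.415% in Butyrate and 0.607% in Control. The intervals cover counting error only, and the treatments were not compared.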
